A study of Blastobotrys raffinosifermentans with 8 samples.

Results

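A pair of locus tags of the yeast *Blastobotrys raffinosifermentans* were examined here: ARAD1D18458g, the tag given for *ACDO1* (catechol-1,2-dioxygenase), and ARAD1D18502g, a phenol hydroxylase tag. They were found by their tag in the probe names of the array, where a locus tag is the identifier of a gene in the genome annotation. They are 2 of the 6160 tags on the array and hold 16 of its 56312 probes, 10 for ARAD1D18458g and 6 for ARAD1D18502g. Each probe is identified below by the last number of its name, its start position in the tag. The numbering begins at 1, and the sources used here do not say whether it counts from the start of the reading frame or of a longer transcript.

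Total RNA of strain LS3 was hybridised to 8 one-colour Agilent arrays. After overnight growth on glucose with nitrate as the nitrogen source, cells were moved to fresh nitrate medium with 1% glucose plus 0.5% gallic acid (gallic acid arm) or with 1% glucose alone (glucose arm), so that glucose was present in both arms. In each arm 1 array was made for each of 4 harvests, after 15 min or 30 min and after 2 h or 5 h, which gives 4 arrays per arm and no replicate at any harvest time. The labels do not say if the RNA of the arrays was taken from separate cultures, and p-values then describe only how these 8 arrays spread, which may be technical.

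Gallic acid is a building block of tannins. Microbes that use aromatic compounds first add hydroxyl groups to the ring or remove its carboxyl group, and then open the ring. Phenol hydroxylases are flavin monooxygenases that add a hydroxyl group next to an existing one and give catechols, and catechol-1,2-dioxygenases are iron enzymes that cut the catechol ring between its hydroxyl groups and give muconic acids. The products feed into central metabolism.

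Gene names and probe sequences were not used here. Most probes of ARAD1D18458g start beyond the end of the reading frame that the study describes for *ACDO1*, and the others in its last part. The probes of ARAD1D18502g stop well before the end of the reading frame of a protein of the length listed for phenol hydroxylase. It was not tested whether the probes of either tag bind the transcript of the gene named for it, and the values below are those of the tags.

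Between 56.7% and 81.9% of the yeast spots of an array were well above background. Across tags, pairs of arrays of equal harvest time had r of 0.96 or more, and those of different harvest times 0.92 or less. The gallic acid arrays lay in one row of the slide and the glucose arrays in the other, and the column followed the harvest time, so that slide row and treatment, and slide column and harvest time, cannot be told apart. The 10 spike-in RNAs differed between the arms by medians of 0.09, -0.08, -0.00235 and 0.29 (log2, gallic acid minus glucose) in the order of harvest. All levels below are log2 normalised intensities, and a ratio is the level with gallic acid minus the level in glucose at the same harvest time, on the log2 scale.

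The level of ARAD1D18458g differed between harvest times by up to 0.99 over both arms and between the arms at one harvest time by at most 0.20. Its level, the median of its probes, was 6.14, 6.76, 7.07 and 6.09 with gallic acid from the earliest harvest to the latest, against 6.21, 6.56, 7.10 and 6.10 in glucose. The level was highest at 2 h and lowest at 5 h in both arms, and the ranges of the arms overlapped. The means were 6.52 ± 0.48 with gallic acid and 6.49 ± 0.45 in glucose (SD, n = 4 arrays each), where the SD includes the change between harvest times. The ratios were -0.07, 0.20, -0.02 and -0.01.

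Over all harvest times the level of ARAD1D18458g with gallic acid differed from that in glucose by 0.02 (SE 0.06, 95% confidence interval -0.12 to 0.17), and the difference did not pass the threshold (limma, Benjamini-Hochberg adjusted p = 0.936). The ratio was above 0 at 1 harvest time and below 0 at 3. Of the 6112 tags tested in this fit 5 were called higher with gallic acid (0.0818%) and 0 lower (0%) in a fit with 3 residual degrees of freedom. In the same limma fit 530 tags, not ARAD1D18458g, lay below the unadjusted threshold. The study reports induction of *ACDO1* by gallic acid from quantitative PCR of transcripts and from arrays, and cites this series among its sources. Its PCR used another strain with gallic acid as the sole carbon source, and its peak came later than the last harvest here. The reason for the difference from the values of this tag was not tested.

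ARAD1D18458g was a dim tag. Before normalisation the signal of its probes minus the local background lay between 34.0 and 269 intensity units over all arrays. In both arms all 10 probes were well above background at 30 min and at 2 h. At 15 min 2 probes were well above background with gallic acid and 8 in glucose, and at 5 h 1 probe was in each arm. Of the 10 probes 0 were well above background on all 8 arrays. The ratios at 15 min and 5 h therefore compare levels at or near background, and the share of yeast spots well above background was itself lower with gallic acid than in glucose at each harvest time.

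The probes of ARAD1D18458g are given from the lowest to the highest start position, each with its levels and ratios from 15 min to 5 h. At start position 815 the probe had levels of 6.13, 7.02, 6.97 and 5.94 with gallic acid, against 6.22, 6.69, 6.83 and 6.09 in glucose, and ratios of -0.09, 0.32, 0.14 and -0.15. For the probe at 875 the levels were 6.22, 7.18, 6.92 and 6.19 with gallic acid, against 6.22, 6.97, 6.95 and 6.10 in glucose, and the ratios were 0.00, 0.21, -0.04 and 0.08. The next probe, at 936, had levels of 6.37, 7.33, 7.09 and 6.39 with gallic acid, against 6.43, 7.09, 7.13 and 6.26 in glucose, and ratios of -0.06, 0.23, -0.04 and 0.12. At these first 3 positions the level at 30 min was higher than that at 2 h with gallic acid, and within 0.14 of it in glucose. The probe at 1002 had levels of 6.13, 6.84, 7.05 and 5.95 with gallic acid, against 6.20, 6.62, 7.06 and 5.98 in glucose, and ratios of -0.07, 0.21, -0.01 and -0.03. At 1109 the probe levels were 5.97, 6.66, 6.93 and 6.11 with gallic acid, against 6.24, 6.26, 6.88 and 6.21 in glucose, and the ratios were -0.26, 0.40, 0.05 and -0.10. Probe 1169 had levels of 6.08, 6.43, 6.79 and 6.08 with gallic acid, against 6.0, 6.34, 6.90 and 6.0 in glucose, and ratios of 0.08, 0.09, -0.11 and 0.08. From 1002 on the level at 2 h was the highest of the 4 harvest times in both arms. The probe at 1385, printed as 2 spots per array, had levels of 6.11, 6.78, 7.27 and 6.03 with gallic acid, against 6.18, 6.65, 7.40 and 6.22 in glucose, and ratios of -0.07, 0.13, -0.13 and -0.19. At 1445 the levels were 6.17, 6.41, 7.14 and 6.10 with gallic acid, against 6.02, 6.37, 7.17 and 6.03 in glucose, and the ratios were 0.15, 0.04, -0.03 and 0.07. Probe 1505 gave levels of 6.16, 6.57, 7.12 and 6.13 with gallic acid, against 6.20, 6.29, 7.32 and 6.10 in glucose, and ratios of -0.04, 0.27, -0.20 and 0.03. The lowest levels of these 3 probes were at 15 min or 5 h in both arms. The last probe, at 1618, had levels of 6.15, 6.75, 7.60 and 5.93 with gallic acid, against 6.25, 6.50, 7.78 and 6.13 in glucose, and ratios of -0.10, 0.25, -0.18 and -0.21. Its lowest level was at 5 h in both arms.

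**Figure D1:**
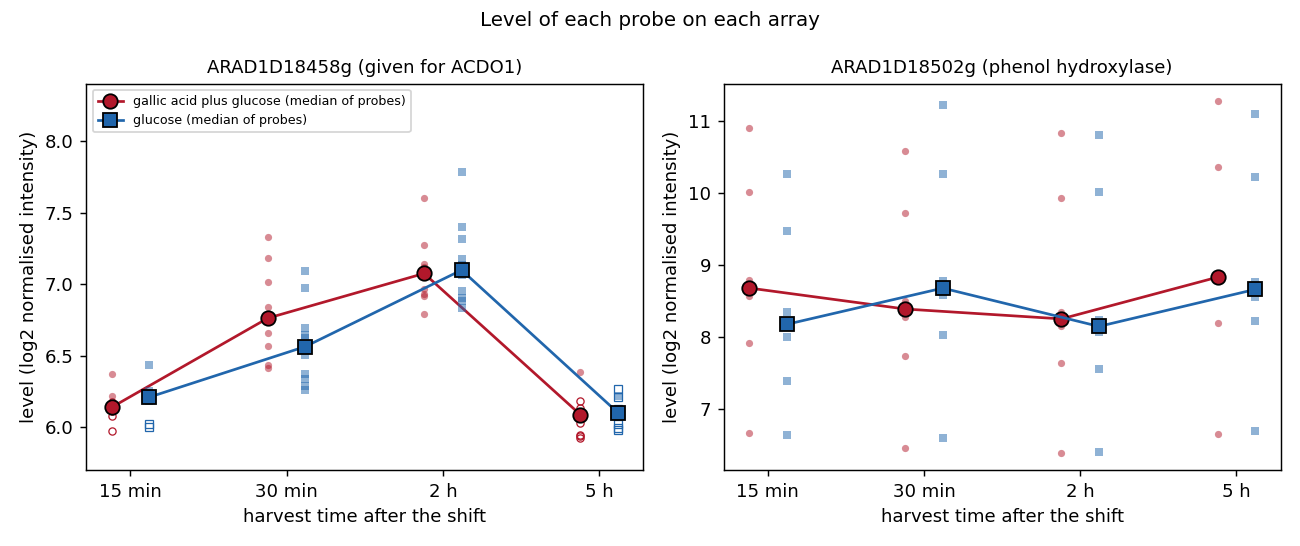
Level (log2 normalised intensity, vertical axis) of each probe on each array by harvest time (horizontal axis, evenly spaced and not to scale), gallic acid arm in red left of the glucose arm in blue; small symbols are probes, filled where well above background and open where not, and large symbols joined by lines are the median of the probes, the level of the tag. ARAD1D18458g peaked at 2 h in both arms (7.07 and 7.10), and ARAD1D18502g changed in opposite order between 15 min and 30 min in the 2 arms.

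At 30 min all 10 probes of ARAD1D18458g were higher with gallic acid, by 0.04 to 0.40 (SD over probes 0.11). At 15 min 3 probes were higher and 7 lower, with ratios of -0.26 to 0.15. At 2 h 2 were higher and 8 lower (-0.20 to 0.14), and at 5 h 5 were higher and 5 lower (-0.21 to 0.12). The sign was thus shared by all probes at 30 min only. The ratio at 30 min, 0.20 or 1.15-fold, rests on 1 array per arm and has no replicate check, and probes of a tag share their RNA and are no replicates. Of all tags tested, 25.7% had a ratio of at least that size at 30 min. The 2 spots of the probe at 1385 differed on the same array by a median of 0.12 and by up to 0.21. No ratio of either tag reached a size of 1. With at least 80% of their probes of that sign, 0.654%, 0.524%, 0.524% and 0.262% of all tags did so upwards from 15 min to 5 h, and 0.229%, 0.18%, 0.311% and 0.164% downwards.

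Some of these ratios differed in size under other processing. With a normexp offset of 0 in place of 50 the ratios of ARAD1D18458g were -0.23, 0.40, -0.04 and -0.05 from 15 min to 5 h. With the processed signal minus its 75th percentile, which changes both the background correction and the scaling, they were -0.58, 0.60, -0.14 and -0.55. The ratio at 30 min was above 0 under all 7 alternatives (0.20 to 0.60).

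In the fit across 47494 probes, 0 of the 10 probes of ARAD1D18458g and 0 of the 6 of ARAD1D18502g passed (limma, adjusted p between 0.795 and 0.987 over both tags), where 0.0737% of all probes did. The differences lay between -0.07 and 0.06 for the probes of ARAD1D18458g, of which 8 were above 0, and between -0.04 and 0.15 for those of ARAD1D18502g, of which 5 were above 0. At an unadjusted p under 0.05, 0 probes of either tag passed, and the share of all probes that did is not given here.

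**Figure D2:**
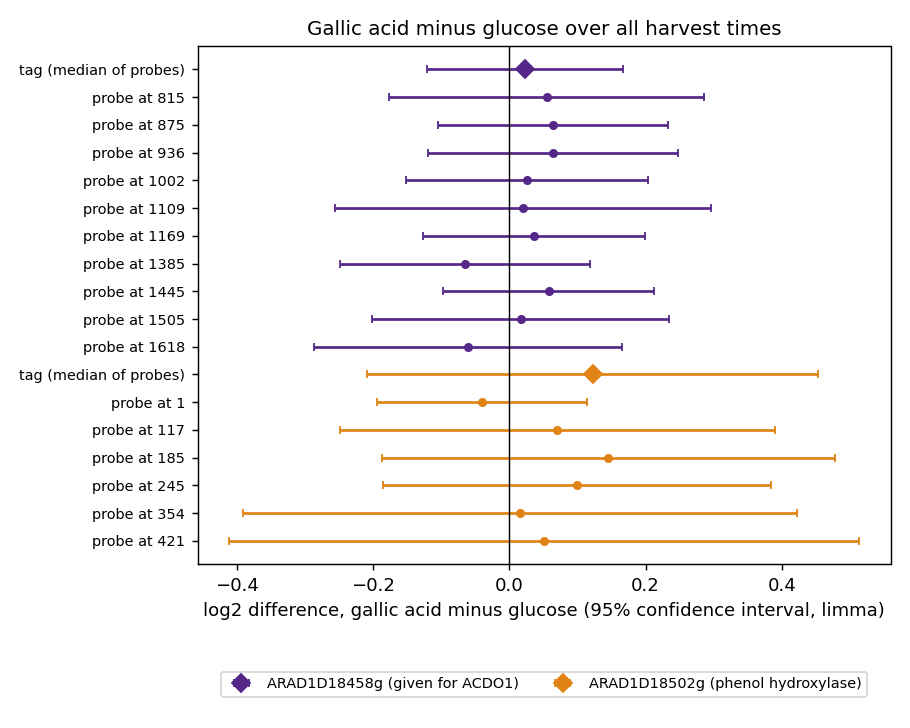
Log2 difference of gallic acid minus glucose over all harvest times (horizontal axis, point and 95% confidence interval from limma) for each tag and each of its probes by start position (vertical axis), ARAD1D18458g in purple above ARAD1D18502g in orange. Every interval includes 0, and the tag values are 0.02 and 0.12.

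Whether the response of ARAD1D18458g to gallic acid changed with time was asked with an interaction term. The ratio at 2 h and 5 h minus that at 15 min and 30 min was -0.08 (SE 0.12, 95% confidence interval -0.41 to 0.24, limma adjusted p = 0.990). Of 6112 tags, 0 passed in this limma comparison (0%) and 334 lay below the unadjusted threshold, and its 2 residual degrees of freedom leave wide intervals.

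The course common to both arms was examined next. The mean of 2 h and 5 h exceeded that of 15 min and 30 min by 0.17 for ARAD1D18458g (SE 0.06, 95% confidence interval 0.03 to 0.32), which did not pass (limma adjusted p = 0.0863), where 23.9% of tags did, 13.1% higher and 10.8% lower. This average joins the highest and the lowest harvest time. The 6 differences between single harvest times were therefore computed, after these values had been seen. The level at 2 h was higher than that at 15 min by 0.91 (SE 0.08, limma adjusted p = 0.00159, with 18.4% of tags called higher). It rose by 0.93 with gallic acid and by 0.89 in glucose. The level at 5 h was lower than that at 2 h by 0.99 (difference -0.99, SE 0.08, limma adjusted p = 0.00115, with 17.4% of tags called lower), with differences of -0.99 with gallic acid and -1.0 in glucose. The size of these differences changed with the processing, while their direction and their call did not in the settings that follow. With a normexp offset of 0 the level at 2 h minus that at 15 min was 1.95, and 5 h minus 2 h was -2.22. With the processed signal minus its 75th percentile the values were 2.48 and -2.95, and with the deposited log2 values they were 1.42 and -1.57. In each arm the share of yeast spots well above background was also highest at 2 h and lowest at 5 h. It was 74.3% and 56.7% with gallic acid, and 81.9% and 58.2% in glucose. Its part in these differences was not tested.

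Of the other differences of ARAD1D18458g, 30 min was higher than 15 min by 0.49 (limma adjusted p = 0.0219, 7.64% of tags called higher). The level at 2 h was higher than that at 30 min by 0.42 (limma adjusted p = 0.0156, 16.1% of tags). The level at 5 h minus that at 30 min was -0.57 (limma adjusted p = 0.0175, 5.15% of tags called lower). At 5 h it was not distinguished from 15 min (-0.08, 95% confidence interval -0.28 to 0.12, limma adjusted p = 0.559, with 6.74% of tags called higher and 6.53% lower). At 5 h only 1 probe was well above background in each arm, and at 15 min 2 were with gallic acid and 8 in glucose. Each of the 5 differences that passed had the same direction in both arms. With offset 0, the processed signal and the deposited table, 30 min minus 15 min was 1.20, 1.61 and 0.81, 2 h minus 30 min was 0.75, 0.86 and 0.60, and 5 h minus 30 min was -1.47, -2.08 and -0.97. Of these only 2 h minus 30 min with the processed signal did not pass (limma adjusted p = 0.0751). With Bonferroni adjustment, 0 of the 5 passed (limma adjusted p 0.324 to 1), and the calls for 30 min against 15 min and for 5 h against 30 min were lost without the 2 h arrays (adjusted p = 0.0560 and 0.0514), the first also without the 5 h arrays (0.0627).

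Probe by probe, all 10 probes of ARAD1D18458g were called higher at 2 h than at 15 min (limma, differences of 0.71 to 1.49, against 17.7% of all probes) and all 10 lower at 5 h than at 2 h (-1.67 to -0.75, against 17.3%). For 5 h against 2 h, 8 of the 10 probes were not well above background at 5 h in either arm. Their measured level at 2 h, as a mean of both arms, was 1.68-fold to 3.17-fold higher. A bound took at 5 h, per array, the probe's own level or the lowest level well above background, whichever was higher. It equalled the measured mean for each of these probes, so these folds are no lower limit and rest on levels not well above background. At 5 h against 30 min 6 of the 10 probes were called lower (5.3% of all probes). At 15 min 2 probes were not well above background in either arm. Their measured level at 2 h was 1.75-fold and 2.08-fold higher, and the bound again equalled the measured mean.

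**Figure D3:**
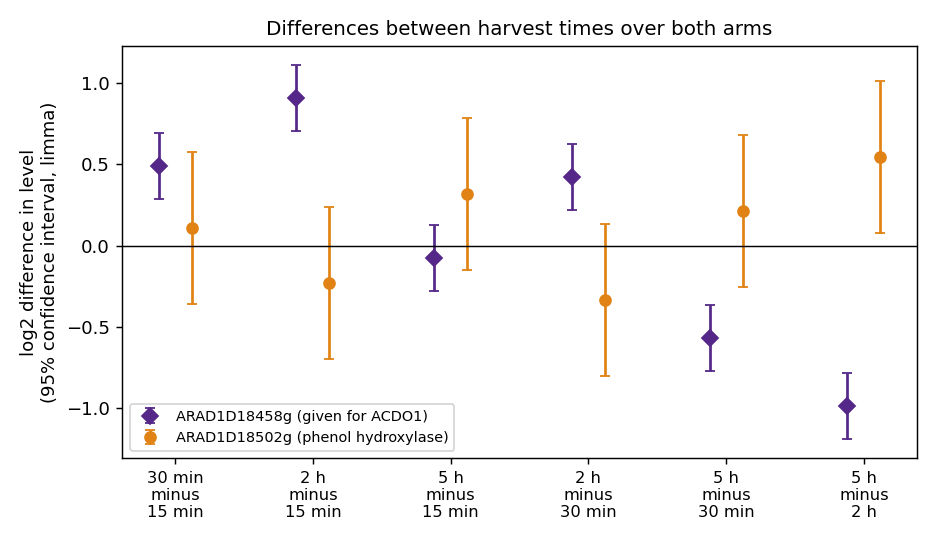
Log2 difference in level between each pair of harvest times over both arms (vertical axis, point and 95% confidence interval from limma; pairs on the horizontal axis), ARAD1D18458g as purple diamonds and ARAD1D18502g as orange circles. ARAD1D18458g at 2 h lay 0.91 above 15 min and 0.42 above 30 min, and 5 h lay at -0.99 from 2 h, while ARAD1D18502g at 5 h lay 0.55 above 2 h.

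The change between 30 min and 2 h differed along ARAD1D18458g. From the lowest to the highest start position, the level at 2 h minus that at 30 min was -0.05, -0.27, -0.23, 0.22, 0.27, 0.36, 0.50, 0.73, 0.55 and 0.85 with gallic acid, against 0.14, -0.02, 0.04, 0.44, 0.62, 0.56, 0.76, 0.80, 1.03 and 1.28 in glucose. It was near or below 0 at the first 3 positions (medians -0.23 with gallic acid and 0.04 in glucose) and 0.64 and 0.91 in the median over the last 4. In the probe fit 5 of the 10 probes were called higher at 2 h (15.4% of all probes were), and these were the 5 with start positions from 1169 to 1618 (differences 0.46 to 1.07, limma adjusted p 0.00186 to 0.0143). The probes at 815, 875 and 936 had differences of 0.04, -0.14 and -0.10 (limma adjusted p = 0.837, 0.326 and 0.551). These 3 were among the 5 probes called higher at 30 min than at 15 min (7.09% of all probes), with 0.68, 0.86 and 0.81 (limma adjusted p = 0.0239, 0.00422 and 0.00668).

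Over the 10 probes the change between 30 min and 2 h went with the start position with Pearson's r of 0.94 and Spearman's rho of 0.95 with gallic acid, and 0.96 and 0.95 in glucose. The probes share the 4 arrays and the RNA and the pattern was noticed in these values, so that no p is given. Spearman's rho lay between 0.92 and 0.95 under 4 other scalings in either arm. Among 1218 tags with 10 probes all well above background on these 4 arrays, 19 (1.56%) had a rho of at least 0.95 in both arms. A tag level taken as a median over probes mixes these courses, and with the brightest probe alone, at 936, 2 h minus 30 min was -0.10 (limma adjusted p = 0.589).

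**Figure D4:**
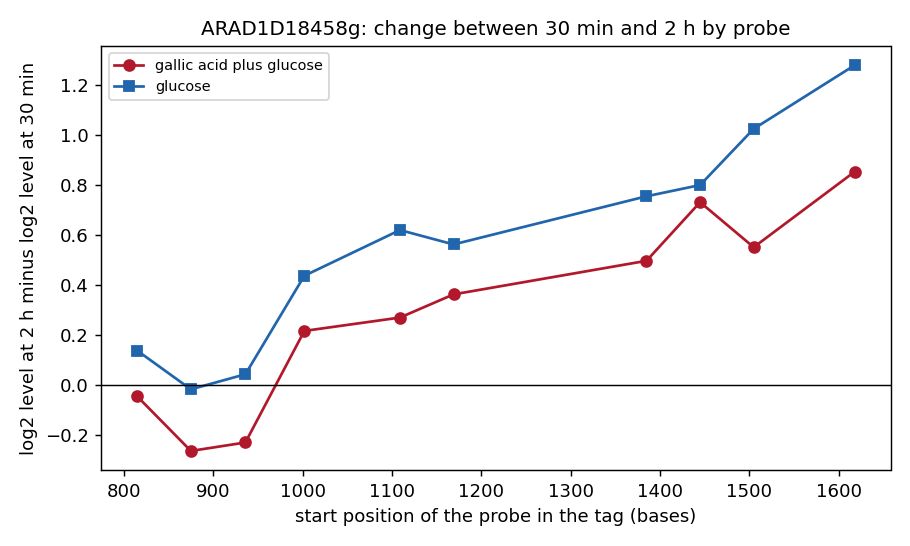
Log2 level at 2 h minus log2 level at 30 min (vertical axis) of each probe of ARAD1D18458g by its start position in bases (horizontal axis), gallic acid arm as red circles and glucose arm as blue squares. The change was -0.05 to -0.27 at the first 3 positions with gallic acid and up to 0.85 at the last, against -0.02 to 0.14 and 1.28 in glucose.

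At ARAD1D18502g the level was higher with gallic acid at 15 min and lower at 30 min, with ratios smaller in size at 2 h and 5 h. Its level was 8.68, 8.39, 8.25 and 8.83 with gallic acid from 15 min to 5 h, against 8.18, 8.68, 8.15 and 8.66 in glucose. The ratios were 0.50, -0.29, 0.10 and 0.17. The ranges of the arms overlapped. The means were 8.54 ± 0.26 with gallic acid and 8.42 ± 0.29 in glucose (SD, n = 4 arrays each). All 6 probes were well above background on all 8 arrays, with signals minus the local background of 62.0 to 2453 intensity units.

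Over all harvest times ARAD1D18502g differed by 0.12 with gallic acid (SE 0.13, 95% confidence interval -0.21 to 0.45) and did not pass (limma adjusted p = 0.830), with a ratio above 0 at 3 of 4 harvest times. The change of the response between early and late harvest was 0.03 (SE 0.29, 95% confidence interval -0.75 to 0.81, limma adjusted p = 0.999). The early group joins ratios of opposite sign, which this contrast averages. The tested model holds no term for a single harvest time, since each has 1 array per arm.

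The probes of ARAD1D18502g are given in the same order. At start position 1 the probe had levels of 6.67, 6.47, 6.40 and 6.65 with gallic acid, against 6.64, 6.60, 6.41 and 6.70 in glucose, and ratios of 0.04, -0.13, -0.01 and -0.05. For the probe at 117 the levels were 7.91, 7.73, 7.65 and 8.19 with gallic acid, against 7.39, 8.03, 7.56 and 8.22 in glucose, and the ratios were 0.52, -0.30, 0.09 and -0.03. The next probe, at 185, had levels of 8.57, 8.28, 8.16 and 8.79 with gallic acid, against 8.01, 8.58, 8.07 and 8.55 in glucose, and ratios of 0.56, -0.31, 0.09 and 0.23. The probe at 1 moved least between harvest times, and its signal of 62.0 to 79.0 intensity units was close to the added offset of 50, which shrinks ratios. The probe at 245, also printed as 2 spots, had levels of 8.80, 8.50, 8.35 and 8.88 with gallic acid, against 8.35, 8.78, 8.23 and 8.77 in glucose, and ratios of 0.45, -0.27, 0.12 and 0.11. At 354 the probe levels were 10.01, 9.72, 9.92 and 10.36 with gallic acid, against 9.47, 10.27, 10.01 and 10.22 in glucose, and the ratios were 0.55, -0.54, -0.09 and 0.15. Probe 421 had levels of 10.90, 10.58, 10.83 and 11.27 with gallic acid, against 10.26, 11.22, 10.81 and 11.10 in glucose, and ratios of 0.64, -0.63, 0.02 and 0.17. With gallic acid each of these 6 probes was lowest at 30 min or 2 h, and in glucose at 15 min or 2 h.

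At 15 min all 6 probes of ARAD1D18502g were higher with gallic acid, by 0.04 to 0.64, and 5 of them by at least 0.45. At 30 min all 6 were lower, with ratios of -0.63 to -0.13. At 2 h 4 were higher and 2 lower (-0.09 to 0.12), and at 5 h 4 were higher and 2 lower (-0.05 to 0.23). Folds of gallic acid over glucose were 1.42, 0.818, 1.08 and 1.13 for the tag. Of all tags tested, 5.63% had a ratio of at least the size of that at 15 min and 15.7% of that at 30 min. For 2 h and 5 h the shares were 35.7% and 14.9%, so the ratio at 5 h was about as common in size as that at 30 min. The 2 spots of the probe at 245 differed on one array by a median of 0.13 and by at most 0.30. The ratio at 15 min was 0.36 to 0.66 and that at 30 min -0.63 to -0.25 under the 7 alternatives, so neither changed sign. With 1 array per arm and harvest time, these opposite ratios were not tested, and the early difference in spots well above background (58.9% with gallic acid and 78.6% in glucose at 15 min) stands beside them; its part was not tested.

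**Figure D5:**
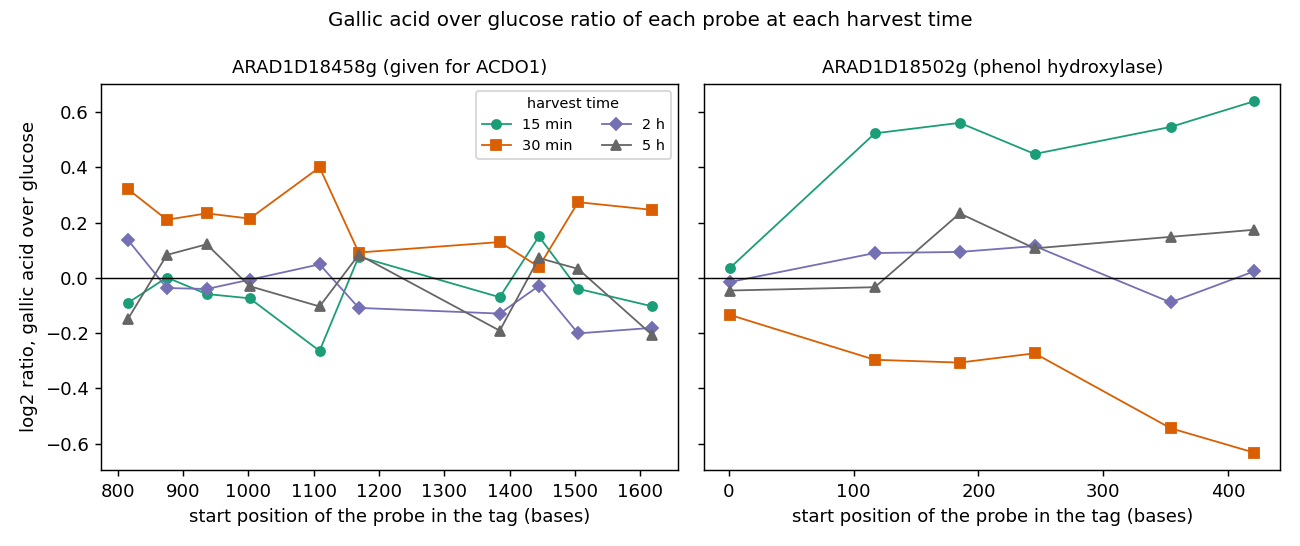
Log2 ratio of gallic acid over glucose (vertical axis) of each probe by its start position in bases (horizontal axis), with a line and symbol for each harvest time; left ARAD1D18458g, right ARAD1D18502g. At ARAD1D18458g the 30 min ratios are all above 0 (0.04 to 0.40), and at ARAD1D18502g all 15 min ratios are above 0 (0.04 to 0.64) and all 30 min ratios below it (-0.63 to -0.13).

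Between harvest times over both arms, late minus early harvest was -0.01 for ARAD1D18502g (SE 0.13, limma adjusted p = 0.970). Of the 6 differences between single harvest times 0 passed, and 1 did at an unadjusted p under 0.05. That was 5 h minus 2 h, 0.55 (SE 0.18, 95% confidence interval 0.08 to 1.01, limma adjusted p = 0.0716, with 19.6% of tags called higher), with 0.58 with gallic acid and 0.51 in glucose. In the probe fit the probes at 117 and 245 were called higher at 5 h than at 2 h (0.60 and 0.53, limma adjusted p = 0.0480 and 0.0491, against 17.8% of all probes). The tag passed with the processed signal (0.98, limma adjusted p = 0.0281) and with offset 0 (0.64, 0.0474), and without the 15 min or the 30 min arrays (0.0368 and 0.0287).

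The difference between 30 min and 15 min ran in opposite directions in the arms for ARAD1D18502g, -0.29 with gallic acid and 0.50 in glucose, against 0.62 and 0.35 for ARAD1D18458g. The difference between the arms in this change was not tested. The probe of ARAD1D18502g at 1 was lower at 30 min than at 15 min in both arms (6.67 to 6.47 with gallic acid, 6.64 to 6.60 in glucose). The order of the harvest times differed between the tags within each arm. By the median of the probes, ARAD1D18458g was at its highest and ARAD1D18502g at its lowest level at 2 h in both arms. In glucose the level of ARAD1D18502g differed little between 2 h and 15 min (8.15 and 8.18). Single probes differed from the medians. Those of ARAD1D18458g at 815, 875 and 936 were highest at 30 min with gallic acid. Those of ARAD1D18502g at 354 and 421 were lowest at 30 min with gallic acid and at 15 min in glucose. The probes of ARAD1D18502g at 117 and 185 were also lowest at 15 min in glucose, so that only those at 1 and 245 were lowest at 2 h there.

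The 6 tags from ARAD1D18392g to ARAD1D18502g in tag order, which hold both members and the candidate hydroxylase ARAD1D18392g, were listed as their neighbourhood, with tag order in place of gene order. Of these 0 passed in either direction for gallic acid over glucose across the harvest times, with differences of -0.18 to 0.12, where 0.0818% of all tags tested were called higher and 0% lower. The tag between the members, ARAD1D18480g, had levels of 9.72, 9.33, 9.46 and 9.73 with gallic acid, against 9.31, 9.59, 9.78 and 9.67 in glucose. Its ratios of 0.41, -0.26, -0.31 and 0.06 had the signs of those of ARAD1D18502g at 15 min, 30 min and 5 h and the opposite sign at 2 h. ARAD1D18414g had ratios of -0.52 and -0.13 at 15 min and 30 min, and its highest level at 2 h in both arms (8.32 with gallic acid and 8.37 in glucose), as ARAD1D18458g had.

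Of the 10 tags the study's text connects with the breakdown of aromatic acids, 9 were found on the array and 8 were tested, the members included. Of the 8, 0 were called higher and 0 lower over all harvest times, where 0.0818% of all tags tested were called higher and 0% lower. Of the 8, 4 had differences above 0 and 4 below, against 2826 above 0 and 3286 below of all 6112, and the median was 0.01, against -0.01 over all tags tested. The candidate hydroxylase ARAD1C00330g had ratios of 0.44, 1.14, 0.80 and 0.69 and a difference of 0.77 (SE 0.12, limma adjusted p = 0.286). It was the only one of the 8 at an unadjusted p under 0.05, where 530 of all 6112 tags tested lay. From 15 min to 5 h, 70%, 100%, 100% and 90% of its probes were well above background with gallic acid, against 10%, 0%, 20% and 0% in glucose, so that these ratios are set against a level at or near background. The tag given for the gallic acid decarboxylase *AGDC1* was the listed tag not found in the probe names, and it was not analysed here.

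The tags most like each member by Pearson's correlation of level over the 8 arrays were taken from those with at least 80% of their probes well above background on at least 6 arrays. For ARAD1D18458g they were ARAD1C39930g (r = 0.99) and ARAD1A19030g (r = 0.99) of 2976 tags. ARAD1C39930g had levels of 6.56, 7.49, 7.75 and 6.62 with gallic acid, against 6.87, 7.17, 7.96 and 6.67 in glucose. For ARAD1D18502g they were ARAD1D08778g (r = 0.98) and ARAD1C28050g (r = 0.97) of 2975 tags. ARAD1D08778g had ratios of 0.66, -0.31, -0.01 and 0.12, positive at 15 min and negative at 30 min as those of ARAD1D18502g were. The correlations are over 8 arrays that share harvest times, were picked as the highest of many, and are given as a description.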

How the data were processed

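The authors extracted spot intensity values with Agilent Feature Extraction 11.5.1.1, per the submitters' processing notes, and deposited median signals of the spots and their local backgrounds, a processed signal, and flags of 0 or 1 (other values, no unit). They also deposited a table of log2 values made in limma with normexp and quantile normalisation, with an offset not given in the sources used here. That table's columns had medians of 5.63 to 5.65.

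In R 4.3.3 with limma 3.58.1, the median signal was corrected with normexp (offset 50), control spots were removed, arrays were quantile-normalised and log2 was taken. The median signal was used in place of the mean. The offset shrinks ratios of dim probes. Spots of a probe were averaged, and the median of the probes was taken as the level of a tag. Tags with a probe well above background on 2 or more arrays were tested (6112 tags); a probe was tested when it was so itself and had values on all arrays (47494 probes). The number of arrays limits the precision.

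Gallic acid was compared with glucose by limma's linear model with harvest time as a block (3 residual degrees of freedom), early against late response as an interaction (2), and harvest times in the additive model. In the first fit a ratio that varied over time counts as error. Benjamini-Hochberg adjusted p below 0.05 was called, over all tags or probes tested; the study's methods name Bonferroni, an alternative here. Harvest time pairs the arrays by the labels: after subtracting arm means, arrays of the same time correlated across tags with r of 0.75 to 0.91, against at most 0.01 for other pairings. Subtracting arm means itself lowers the correlation between different harvest times, so the latter value says little about the pairing. The fit of gallic acid against glucose across tags was tested on simulated data.

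The members, the pathway and neighbour lists and the alternatives were chosen with earlier results of these data known. Named tags are the members, the list tags and, per member, the 2 most correlated tags. Single harvest time pairs, the profile by start position and the bounds were added after seeing the values. Alternatives were the processed signal minus its 75th percentile, offset 0, median scaling, the deposited table, other summaries of probes, other filters, Bonferroni, a trended robust prior, no block, a slope on the log2 of harvest time, and omission of each time in turn.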

Additional observations from a re-analysis of the deposited data

Results flagged for a closer look

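In 36 sets of 4 values (the level of each tag and probe over the harvest times of an arm), 2 had one value far from the other 3: the probes of ARAD1D18458g at 1109 and 1505, both in glucose at 2 h, with levels of 6.88 and 7.32. Chance flags about 1 in 20 such sets, and the 4 values are different harvest times. The ratio of ARAD1D18502g at 30 min minus that at 15 min was -0.79, with all 6 probes of opposite sign at the 2 times. This difference was not tested. The probes share their RNA, and the share of all tags with such a pattern was not counted. Of all tags tested, 49.6% had a ratio above 0 at 15 min and 46.8% at 30 min. The medians of the spike-in RNAs had the same signs, 0.09 and -0.08.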

How the results depend on the processing

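The 2 tags stayed on the same side of the threshold for gallic acid against glucose and for the early against late response under all alternatives run (limma adjusted p of at least 0.275). The depth limit is that ARAD1D18458g was near background at 15 min and 5 h. With the processed signal the difference of ARAD1D18458g over all harvest times was -0.17, in place of 0.02, and leaving out a harvest time gave -0.0360 to 0.0537, below 0 without 30 min; for ARAD1D18502g leaving one out gave -0.00520 to 0.26, below 0 without 15 min, in place of 0.12. The early against late response of ARAD1D18502g, 0.03, became -0.0269 with the processed signal and -0.0229 per doubling of harvest time as a slope, and -0.37 to 0.43 with a harvest time left out; for ARAD1D18458g the last gave -0.22 to 0.0518. Late minus early harvest of ARAD1D18458g, 0.17, was 0.25 with median scaling (limma adjusted p = 0.0338) and -0.0866 with the brightest probe, and -0.32 to 0.67 with a harvest time left out, passing without 30 min (0.42) and without 5 h (0.67) and below 0 without 15 min or 2 h. For ARAD1D18502g, -0.01, it was 0.00168 with the processed signal, 0.00205 with median scaling, 0.10 with the mean of the probes, 0.26 with the brightest probe, 0.0342 as a slope, and -0.28 to 0.27 with a harvest time left out. The cause was not tested. The differences of ARAD1D18458g between single harvest times that passed grew by over 1.5 times with offset 0 and the processed signal (5 h minus 2 h, -0.99, was -2.22 and -2.95), 30 min minus 15 min and 5 h minus 30 min also with the brightest probe (0.81 and -0.88), and 2 h minus 30 min, 0.42, did not pass with the processed signal (0.86, limma adjusted p = 0.0751). Of the differences between single harvest times, 2 changed sign, both with the brightest probe: 2 h minus 30 min of ARAD1D18458g (-0.10) and 2 h minus 15 min of ARAD1D18502g (0.24).

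The count of tags called for gallic acid, 5, was 13 with the processed signal, 18 with offset 0, 10 with the deposited table, 1 with Bonferroni, 17 with the trended prior and 0 to 4 with a harvest time left out. The count of probes, 35, was 75, 111, 122, 9 and 101 under the first 5 of these and 15 to 39 with a harvest time left out. Without the block for harvest time 3 tags and 17 probes were called, and the pairing changed no call of the members (limma adjusted p = 1.00 for both).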
